A study of Mus musculus with 288 samples.

Results

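The genes of oxidative phosphorylation were followed across single enteroendocrine and neighbouring cells of the mouse upper small intestine. Members were taken by symbol: every gene whose name starts with Nduf, Uqcr, Atp5, mt- or Cox followed by a digit from 4 to 8, with the genes Sdha, Sdhb, Sdhc, Sdhd and Cycs. In all, 135 of the 46078 mouse genes in the count table were members, 98 of them nuclear and 37 mitochondrial. The nuclear members were 36 genes of complex I, 8 assembly factors of complex I (Ndufaf1 to Ndufaf8), 4 of complex II, 8 of complex III, 20 of complex IV, 17 of complex V, cytochrome c (Cycs) and 4 genes that the annotation calls pseudogenes (Cox6c2, Ndufa11b, Ndufb4c and Ndufs6b). The mitochondrial members were the 13 mRNAs, 2 rRNAs and 22 tRNAs of the mitochondrial genome, and 7 further symbols that end in -ps were left out.

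The respiratory chain passes electrons from NADH (complex I) and succinate (complex II) through complex III and cytochrome c to oxygen at complex IV, and complex V uses the proton gradient to make ATP. Most subunits are made from nuclear genes, while the mitochondrial genome gives core subunits of complexes I, III, IV and V together with the rRNAs and tRNAs that translate them. Absorptive enterocytes are known for many mitochondria, and enteroendocrine cells couple nutrient metabolism to hormone release.

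All cells came from GLU-Venus mice, in which the proglucagon promoter drives a fluorescent protein, on a C57BL6 background. The animals were 3 male mice of 20 to 21 weeks. Fluorescent cells and non-fluorescent control cells of the proximal small intestine were sorted into wells and sequenced by Smart-seq2, and the labels of the 288 cells give the sequencing pool (3 pools of 96) but neither the mouse nor the fluorescence. By the study's account the control cells came from the mice sequenced at low depth, while only fluorescent cells were taken from the mouse sequenced at high depth, so the sort differed between the shallow pools and the deep one. A pool was therefore the replicate, and p-values measure only the spread between pools.

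Of the 288 cells, 250 had at least 20000 reads on mouse genes with at most 20% of them on mitochondrial genes. The median depth of these cells was 52571 reads in pool SLX-11175, 70726 in pool SLX-11179 and about 1.98e+06 in the deep pool SLX-9703. The cells were classed by their marker reads in CPM, the reads of a gene scaled to a common depth: Gcg-high cells had 10000 CPM or more of Gcg (proglucagon), Gip-high cells 10000 CPM or more of Gip, Pzp-positive cells 100 CPM or more of Pzp, and of the remaining cells the other Cck-high cells had at least 1000 CPM of Cck and the Cck-low cells less. The Gcg-high class held 53 cells, the Gip-high class 25, the Pzp-positive class 64, the other Cck-high class 54 and the Cck-low class 49, and 5 cells that carried 2 or 3 of the marks were left out. All 10 listed enteroendocrine markers (Chga, Scg2 and the like) had reads in every class, with a summed level by pool of 21744 to 43385 CPM in Gcg-high cells, 2959 to 10191 CPM in Gip-high cells, 9308 to 20171 CPM in Pzp-positive cells and 598 to 1119 CPM in Cck-low cells. The Cck-low class was a mixture: by their highest marker list, 17 of its 49 cells were led by leukocyte genes, 10 by enterocyte genes, 8 by enteroendocrine genes, 1 by goblet genes and 1 by stem and cycling genes, and 12 reached 1000 CPM on no list.

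Nuclear and mitochondrial members differed widely in level. Levels between genes are given here as normalised CPM (scaled by edgeR's TMM method) per kb of exon, averaged over 15 sums of cells, 1 for each class in each pool. Of the 98 nuclear members 89 passed the filter on low counts, and of the 37 mitochondrial members 17 did. The median level per kb was 26.4 for complex I, 34.6 for complex II, 48.9 for complex III, 48.5 for complex IV and 31.8 for complex V. The assembly factors of complex I, which are not part of the finished complex, were lower, with a median of 3.93. The 11 mitochondrial mRNAs that passed had a median of 701.7 per kb, with a range from 15.6 to 4299. Of these, 4 lie in a run of genes with few reads described below, and the 7 others, a set chosen after the values were seen, had a median of 1124 and a range from 509.2 to 4299 per kb. Of the mitochondrial rRNAs, mt-Rnr2 stood above all mRNAs at 10679 per kb, while mt-Rnr1 at 1967 lay within their range.

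**Figure D1:**
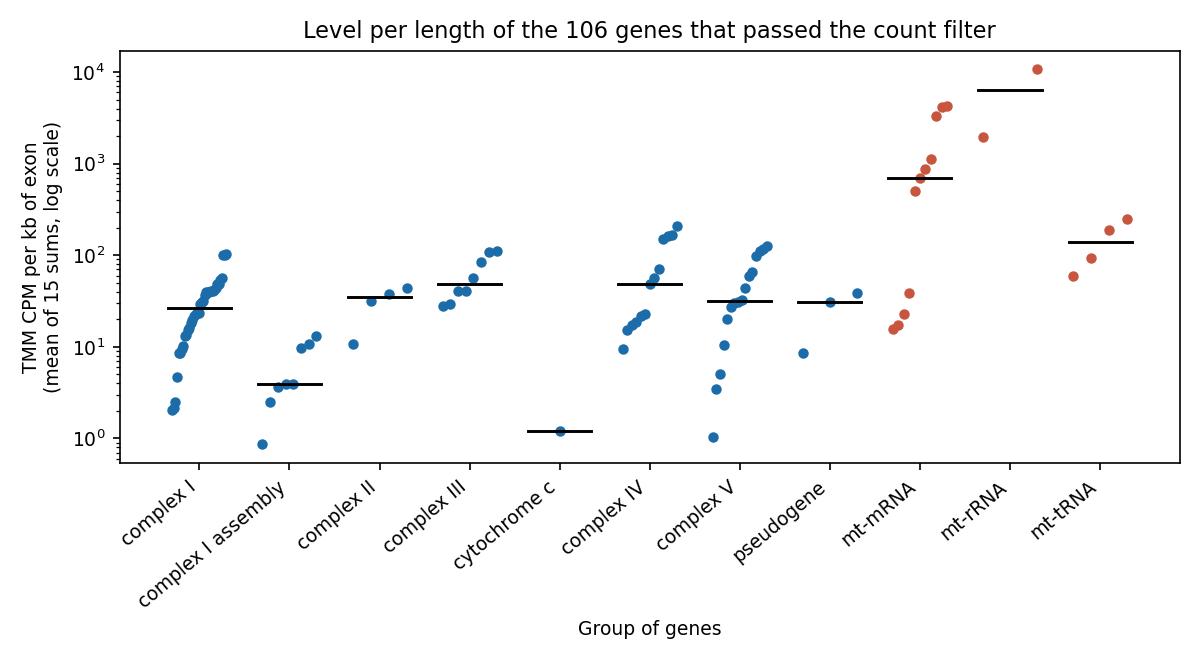
Level per length of the 106 members that passed the count filter, on a log axis, as TMM-normalised CPM per kb of exon averaged over the 15 sums; each point is a gene and each black line the median of its group. Nuclear members lie between 0.866 and 207.6 per kb, while the mitochondrial mRNAs fall into a high set and a low set.

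Within each complex a few subunits led. In complex I, Ndufa2, Ndufa1 and Ndufb9, accessory subunits, had 103, 101.4 and 101.1 CPM per kb. In complex II the membrane anchor Sdhd had 44.1, the iron-sulphur subunit Sdhb 37.6 and the flavoprotein Sdha 31.6 per kb. In complex III the Rieske protein Uqcrfs1 had 112, followed by Uqcr10 at 108.4 and Uqcr11 at 84. In complex IV the leading genes were Cox8a at 207.6, Cox4i1 at 164.7 and Cox6b1 at 161.5 per kb, the highest of the nuclear members. In complex V the catalytic beta subunit Atp5b had 126.7, the alpha subunit Atp5a1 116.7 and the delta subunit Atp5d 110.4 per kb. Without the 3 Cck-low sums the same genes led except that Cox6a1 (133.9) came level with Cox6b1 (133.8), and Sdhb (24.7) and Sdha (24.5) were level too, as were Ndufa1 (98.4) and Ndufa2 (97.9), while Atp5d (92.9) stood above Atp5a1 (86.8). Cycs, the electron carrier between complexes III and IV, was listed at only 1.21 per kb, with 73.9% of its 50-base stretches found in no other annotated gene. The 23 nuclear members with under 90% of such unique stretches had a median of 18.7 per kb and the 66 others that passed 31.5, and the part of shared sequence in these levels was not tested.

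Where a subunit has tissue forms, 1 form carried nearly all reads. Over the 250 cells the ubiquitous Cox4i1 had 67007 reads and Cox4i2 7 reads, all of them in 1 Pzp-positive cell. Cox6a1 had 31510 reads and the heart and muscle form Cox6a2 17, and Cox6b1 had 27763 against 216 for the testis form Cox6b2. Cox8a had 38171 reads, whereas Cox8b and Cox8c had none. Cox7b had 14544 reads and Cox7b2 none, and a count of 0 among the 184477001 reads of these cells allows up to 0.0163 CPM, for counting error only. Ndufa4, a subunit of complex IV despite its name, had 21411 reads and Ndufa4l2 13. The Cox7a family was the exception. Cox7a2 took 66.6% of its reads per length, Cox7a2l, a related supercomplex factor, 17%, and the muscle and heart form Cox7a1 16.4%. By reads alone their shares were 65%, 25.9% and 9.09%. A single enterocyte-marked Cck-low cell of pool SLX-9703 held 29.7% of the Cox7a1 reads. Of the 3 genes for the c subunit of complex V, Atp5g3 took 94.9% of the reads per length, Atp5g1 4.56% and Atp5g2 0.566%, the last with only 61.7% of its stretches unique. By reads alone the 3 genes took 89.9%, 9.72% and 0.412%.

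The 13 mitochondrial mRNAs split into a set with many reads, here called well counted, and a nearly empty one. Per kb, mt-Cytb (4299), mt-Nd1 (4162), mt-Co1 (3354), mt-Nd4 (1124), mt-Nd5 (871.4), mt-Nd6 (701.7) and mt-Nd2 (509.2) were high. Over all 288 cells mt-Cytb had 2277001 reads, mt-Co1 2015639 and mt-Nd1 1753371. In contrast, mt-Co2 had 6092 reads, mt-Atp8 1920, mt-Atp6 17423, mt-Co3 12378, mt-Nd3 954 and mt-Nd4l 1110. These 6 genes lie next to each other between mt-Co1 and mt-Nd4 and together took 0.509% of all mitochondrial mRNA reads. In the annotation of the same genome build, chromosome 1 carries 7 named copies of neighbouring mitochondrial genes in 1 stretch on the minus strand (chr1:24611535-24616197). The copy of mt-Co2, Gm28661, was identical over all 681 bases compared, those of mt-Atp6 (Gm10925, 678 bases), mt-Co3 (Gm28437, 783 bases), mt-Nd4l (Gm10222, 294 bases) and the first 876 bases of mt-Nd4 (Gm28439) as well, and Gm28438 differed from mt-Nd3 at 1 of 345 bases. The copy of mt-Co1, Gm29216, covered only its last 492 bases, with 486 identical.

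The first 120 bases of mt-Co2 and mt-Nd3 are shown beside their chromosome 1 copies, since over most of their length a read from either place carries the same letters. They are transcript sequences of GENCODE M21 on the mm10 build, at chrM:7013-7132 and chrM:9459-9578 (plus strand) and chr1:24615446-24615565 and chr1:24613000-24613119 (minus strand), with bases that differ in capitals.
mt-Co2: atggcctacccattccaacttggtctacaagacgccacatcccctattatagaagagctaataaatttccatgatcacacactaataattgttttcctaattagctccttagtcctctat
Gm28661: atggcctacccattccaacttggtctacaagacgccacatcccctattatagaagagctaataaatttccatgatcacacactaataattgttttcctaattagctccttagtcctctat
mt-Nd3: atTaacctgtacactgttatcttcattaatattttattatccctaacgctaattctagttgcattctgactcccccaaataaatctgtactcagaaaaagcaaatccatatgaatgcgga
Gm28438: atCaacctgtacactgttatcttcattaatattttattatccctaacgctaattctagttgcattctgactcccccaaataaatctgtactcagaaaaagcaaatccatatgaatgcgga
The single difference is T3C, counted from 1 at the start of mt-Nd3.

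Between 0% and 2.01% of the 50-base stretches of mt-Co2, mt-Atp6, mt-Co3, mt-Nd3 and mt-Nd4l were found in no other annotated gene. Their total reads per kb ran from 2741 to 25584, and the lowest of the 7 well counted mRNAs, mt-Nd2, was 7.91 times the highest of them. The copies held few reads too: Gm28661 had 4135, Gm10925 14436, Gm28437 15830, Gm28438 355 and Gm10222 1576. In mt-Co1 (48.9% unique) and mt-Nd4 (37.8% unique) the copy covers a part of the gene and the count stayed high. mt-Atp8 sits inside the same stretch, and although all of its stretches are unique among annotated transcripts it had 9412 reads per kb. What part the handling of reads with several places of alignment had in these counts was not tested. The levels of these 6 genes are therefore not read as levels of their RNA.

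**Figure D2:**
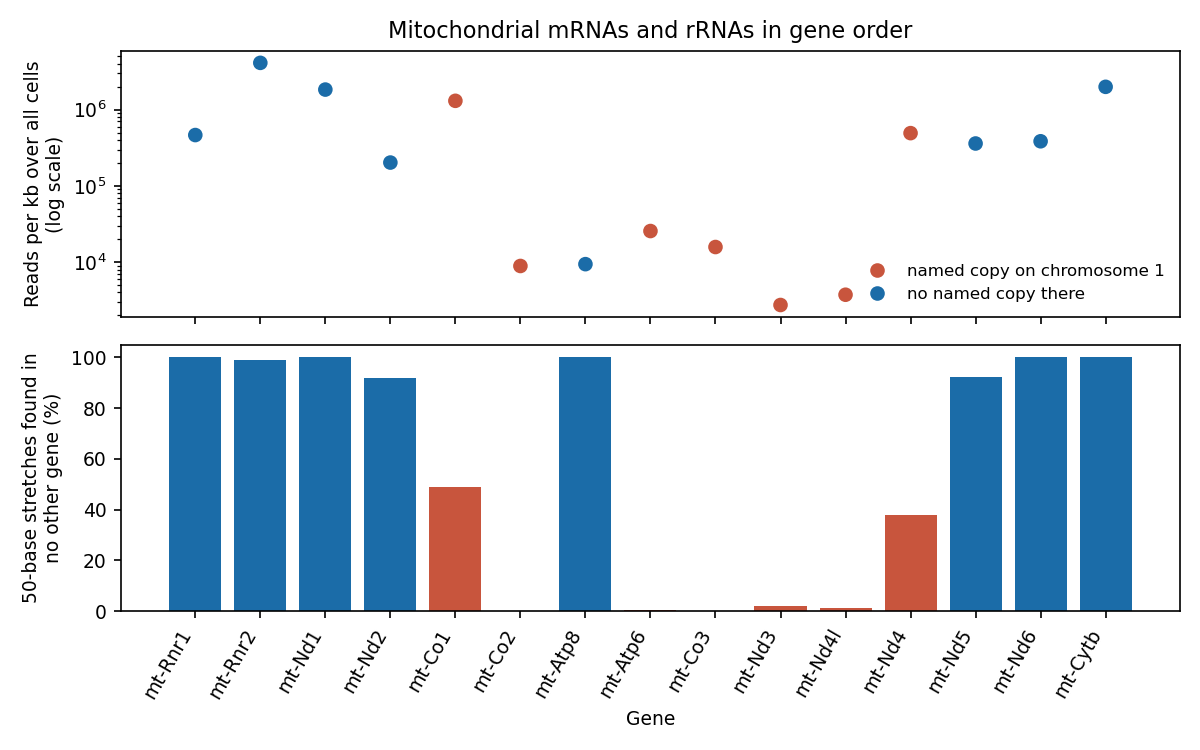
Mitochondrial mRNAs and rRNAs in gene order. The upper plot gives reads per kb over 288 cells on a log axis and the lower one the percentage of 50-base stretches found in no other annotated gene; red marks genes with a named copy on chromosome 1. The run from mt-Co2 to mt-Nd4l is low in the upper plot, and all of it but mt-Atp8 has at most 2.01% unique stretches.

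The summed share of reads on the nuclear members was lower in Gip-high cells than in the other hormone classes. In Gcg-high cells it was 0.583% of mouse gene reads in pool SLX-11175, 0.511% in pool SLX-11179 and 0.846% in pool SLX-9703, a mean of 0.647% ± 0.177 (SD, n = 3 pools). In Pzp-positive cells it was 0.633%, 0.648% and 0.839% (mean 0.707% ± 0.115). In Gip-high cells it was 0.19%, 0.349% and 0.432% (mean 0.323% ± 0.123), under both other classes in every pool and with no overlap between them. The other Cck-high cells lay between, at 0.433%, 0.457% and 0.641%. In the sum with the fewest reads, the Gip-high sum of pool SLX-11175 with 420453 reads, the 95% Wilson interval of the share ran from 0.177% to 0.203%. Such intervals cover counting error only, since reads without molecular identifiers are not independent molecules. An exact two-sided paired permutation test over 3 pools cannot give a p below 0.25, and these shares are given without a test.

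The share is relative to all reads, and hormone genes took many of them in some cells. Together, 11 abundant hormone and marker genes (Gcg, Gip, Cck, Sct, Ghrl, Nts, Pyy, Tph1, Pzp, Chga and Chgb) held a median of 41.6% to 53% of the reads in the Gip-high cells with 100000 CPM or more of Gip, a limit chosen after the data were seen. In the Gip-high cells with less Gip they held a median of 4.41%, 2.76% and 3.58% by pool, and in Gcg-high cells 26.8%, 29.6% and 34.6%. Of the reads outside these 11 genes and the mitochondrial genes, the nuclear members took 0.276%, 0.692% and 0.767% in Gip-high cells against 0.833%, 0.775% and 1.42% in Gcg-high cells, lower in every pool. The median over cells of this measure was 0.162%, 0.669% and 0.544% in Gip-high cells and 0.824%, 0.62% and 1.23% in Gcg-high cells, so by the median Gip-high cells were higher in pool SLX-11179 and lower in the other pools. Per spike-in read the nuclear member reads of the Gip-high sums were 0.304, 1.06 and 0.236 times those of the Gcg-high sums, again not lower in pool SLX-11179. As summed TMM CPM the nuclear members came to 2510, 3866 and 5298 in Gip-high sums, 5081, 5176 and 5985 in Gcg-high sums and 5440, 4830 and 5133 in Pzp-positive sums. On this scale Gip-high cells were below Gcg-high cells in every pool and above Pzp-positive cells in pool SLX-9703. Within the Gip-high class, 11 cells had 10000 to 100000 CPM of Gip, 5, 1 and 5 by pool, so every value of pool SLX-11179 for them is that of 1 cell. Of the reads outside the 11 genes and the mitochondrial genes, their median nuclear share was 0.069%, 0.0717% and 0.157% by pool. In pool SLX-9703 they ranged from 0.066% to 0.826%. The 14 cells with more Gip had medians of 0.468%, 0.708% and 1.1%. These were under the Gcg-high medians in pools SLX-11175 and SLX-9703 and above it in pool SLX-11179. The cells with less Gip also had fewer genes with a read, a median of 1851, 1888 and 6156 by pool against 2128, 4821 and 8851, and lower enteroendocrine markers, at 1294, 1261 and 2987 CPM against 3536, 6653 and 10265 CPM. Their mitochondrial share of all reads was higher, a median of 3.74%, 2.53% and 8% against 1.32%, 1.36% and 2.81%. On this scale the 11 hormone and marker genes held far fewer of the reads in the cells with less Gip. The part of these differences in the nuclear share was not tested. Left out, they raised the mean share over all reads to 0.364% for the class.

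Across all cells the share rose with the number of genes with a read. Spearman's rho between the nuclear share and the number of genes was 0.81 over 75 cells of pool SLX-11175, 0.77 over 87 cells of pool SLX-11179 and 0.70 over 88 cells of pool SLX-9703. Between the nuclear and the mitochondrial share it was only 0.13, 0.24 and -0.13. Within 14 groups of 1 class in 1 pool (6 to 28 cells), the first rho ran from 0.21 to 0.94 with a median of 0.63, and the second from -0.71 to 0.69 with a median of -0.04. The values over a pool thus mix differences between classes with those within them, and only the first rho was above 0 in all 14 groups. These are descriptions over cells that share a library pool, and the limit of 20% on mitochondrial reads cuts the second one. After thinning each cell to 20000 reads, Gcg-high cells had reads on a median of 39.5, 35 and 53 nuclear members by pool and Gip-high cells on 12.5, 27 and 31.5. The 20000 reads include those of the hormone genes, so depth outside these genes was not made equal. The Gip-high medians also mix the cells with less Gip, which had fewer genes with a read, with the others. Unthinned, a cell had reads on a median of 47, 50 and 82.5 nuclear members in the same pools.

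**Figure D3:**
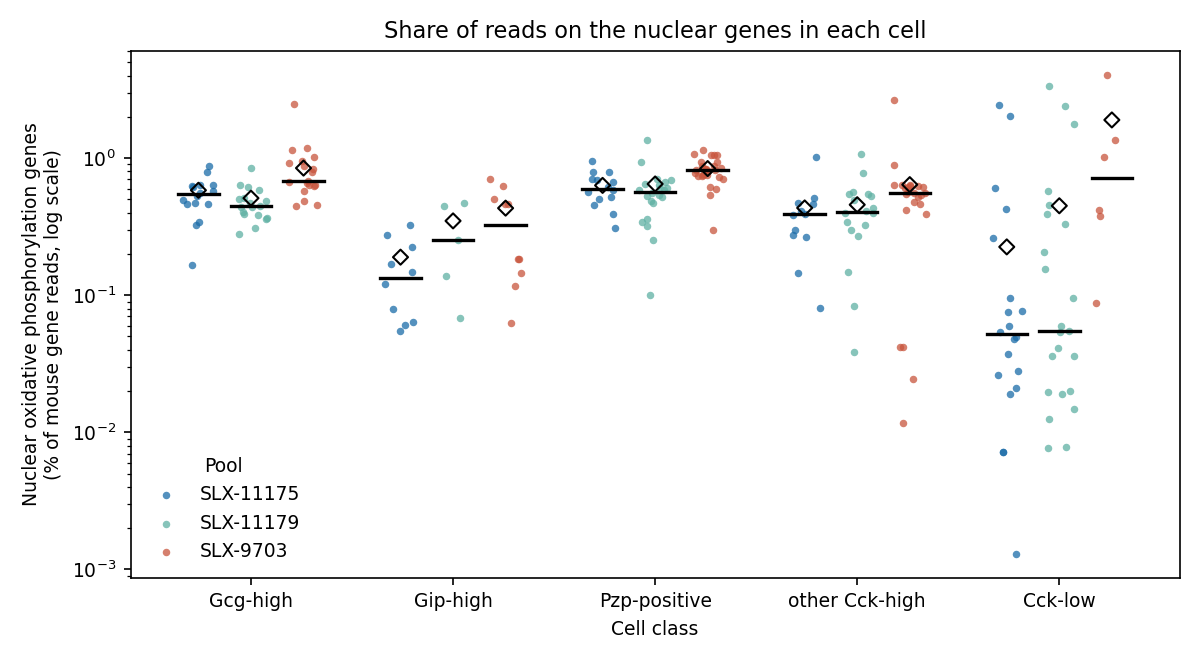
Share of mouse gene reads on the nuclear members in each of 245 cells, on a log axis, by class and pool; short black lines are medians over cells and open diamonds the share in the summed reads. Gip-high sums sit from 0.19% to 0.432%, under the Gcg-high and Pzp-positive sums of the same pools, and Cck-low cells spread from 0.0013% to 4.06%.

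Mitochondrial reads did not follow the same order. Their share was 2.13%, 3.09% and 4.45% in Gcg-high cells, 2.37%, 1.44% and 4.34% in Gip-high cells and 2.69%, 4.34% and 5.22% in Pzp-positive cells. Gip-high cells were above Gcg-high cells in pool SLX-11175 and below them in the other pools, and Pzp-positive cells were above Gcg-high cells in all 3. These orders turned with the scale in pool SLX-9703. Relative to the reads outside the mitochondrial and the 11 hormone and marker genes, the mitochondrial reads there came to 7.71% in Gip-high, 7.45% in Gcg-high and 7.39% in Pzp-positive cells. As TMM CPM they came to 53298, 31457 and 31912 in the same order. On the scale of all reads the order also turned with the Gip level. The cells with 100000 CPM or more of Gip had median mitochondrial shares of 1.32%, 1.36% and 2.81% by pool. These lay below the Gcg-high medians of 2.25%, 2.92% and 3.72% in all 3. In pool SLX-9703 the 11 hormone and marker genes held a median of 53% of the reads of these cells and 34.6% in Gcg-high cells. These medians are not given on the other scales. The mitochondrial rRNAs took 49.1% ± 4.39 (SD, n = 3 pools) of the mitochondrial reads in Gcg-high cells, 51.1% ± 1.38 in Gip-high cells and 45% ± 4.56 in Pzp-positive cells and the ranges over pools overlapped.

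No single member passed the test between the hormone classes. The sums were compared in edgeR by its quasi-likelihood test, with pools as blocks, and a gene was called at a false discovery rate of 0.05 over the 10724 genes tested. Between Gip-high and Gcg-high cells 0 of 106 tested members were called, where 0.55% of all genes were, and 14 of the 89 nuclear members (15.7%) had an unadjusted p under 0.05, 13 of them lower in Gip-high cells, as did 12.5% of all genes. The median log2 fold change was -0.52 over the 89 nuclear members and -0.24 over all genes, and 71 of the 89 were below 0. The DESeq2 test called 2 members, both lower, and 4.06% of all genes. By complex the median was -0.45 for complex I, -0.03 for complex II, -0.46 for complex III, -0.79 for complex IV and -0.47 for complex V, while the 11 mitochondrial mRNAs had a median of 0.16, as had the 7 well counted ones. Against Pzp-positive cells 0 members were called in Gip-high cells (1.73% of all genes), with a median of -0.44 over the nuclear members and -0.22 over all genes. Of the nuclear members 14 (15.7%) had an unadjusted p under 0.05, all lower in Gip-high cells, where 13.8% of all genes had one, and DESeq2 called 3 members and 6.19% of all genes. In both comparisons the members' share of DESeq2 calls was under that of all genes. Both comparisons share the Gip-high sums.

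The members nearest to a call were chosen after their values were seen. Ndufv3, a small subunit of the NADH-binding module of complex I (chr17:31520115-31531331), had 76.2, 56.4 and 69.8 TMM CPM in the 3 Gcg-high sums and 98.1, 72.7 and 64 in the Pzp-positive ones. In the Gip-high sums it had 12.6, 11.9 and 33.9 TMM CPM, below every sum of both other classes. Its log2 fold change against Pzp-positive cells was -2.05 ± 0.53 (SE; edgeR adjusted p = 0.0617) and against Gcg-high cells -1.80 ± 0.52 (edgeR adjusted p = 0.15). Ndufa4 (chr6:11900292-11907497) had 15.7, 15.9 and 57.5 TMM CPM in the Gip-high sums, against 70.8, 91.9 and 100.3 in Gcg-high and 106.2, 72.2 and 75.3 in Pzp-positive sums. The groups did not overlap here either, and its adjusted p by edgeR was 0.141 against Pzp-positive and 0.186 against Gcg-high cells. Neither gene was called by this edgeR test. Over 18 alternative settings each of the 2 genes was called in 2 against Pzp-positive and in 1 against Gcg-high cells.

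Pzp-positive and Gcg-high cells were not told apart by any member. Of 106 members 0 were called by edgeR, where 0.0466% of all genes were, 0 had an unadjusted p under 0.05 (4.04% of all genes), and DESeq2 called 0 (0.746% of all genes). The median log2 fold change was -0.05 over the nuclear members and -0.02 over all genes, with 36 above and 53 below 0. The range over nuclear members ran from -2.02 to 1.63, so single members with wide errors are not shown to be alike.

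**Figure D4:**
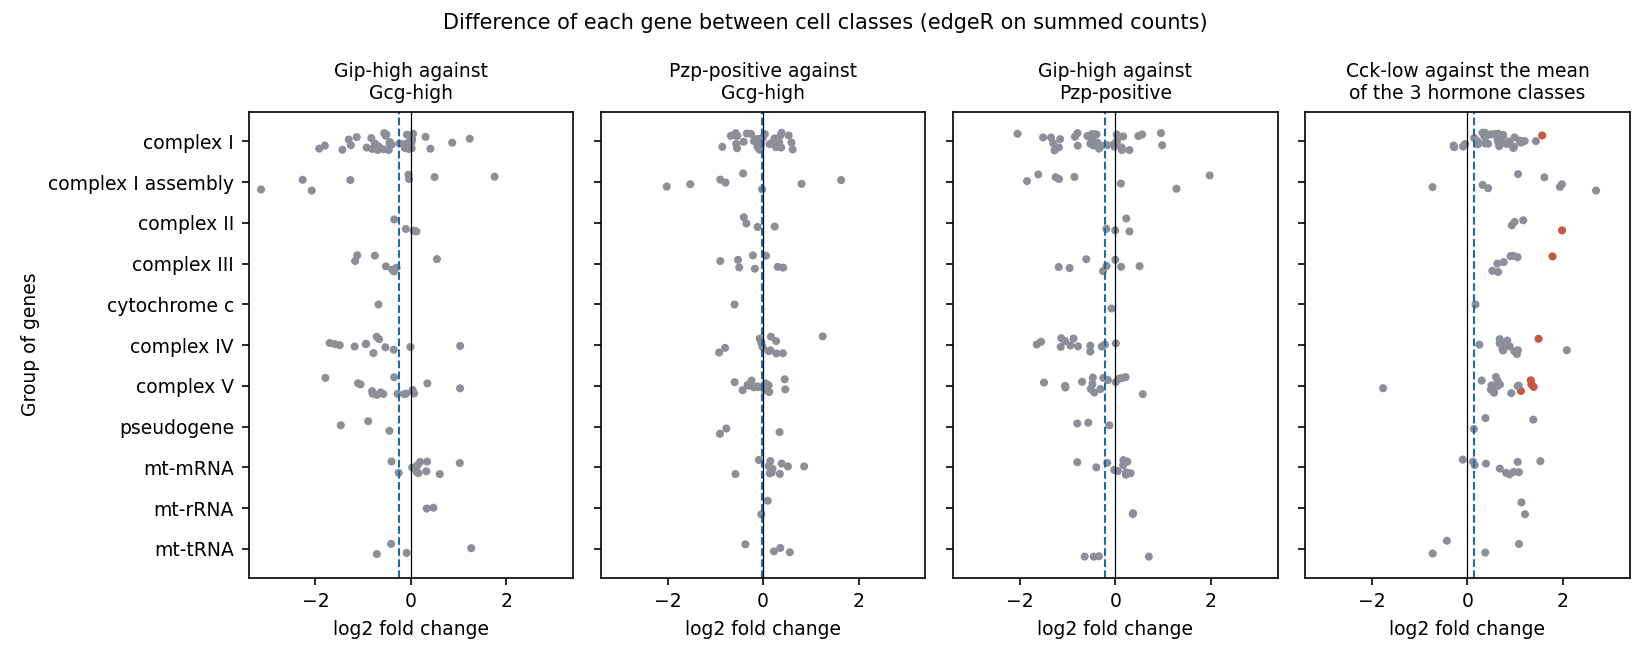
Log2 fold change of each tested member in the 4 comparisons, by group of genes, from edgeR on summed counts; red points were called at a false discovery rate of 0.05 and the dashed line is the median of all genes tested. The 8 red points all lie to the right in the comparison of Cck-low cells with the hormone classes, and no point is red in the other 3.

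Cck-low cells had higher levels of 8 nuclear members than the mean of the Gcg-high, Gip-high and Pzp-positive classes, and none was lower. The genes were Sdhb, Uqcrc1, Ndufv1, Cox5a and the complex V genes Atp5a1, Atp5b, Atp5c1 and Atp5o, which encode at least 1 subunit of each complex. The 8 make up 7.55% of the 106 tested members, where 6.63% of all genes were called in either direction and 4.03% were called higher. The edgeR count is therefore not read as a result about the members. An unadjusted edgeR p under 0.05 was found for 33 of the 106 members (31.1%), all higher, and for 21.1% of all genes. DESeq2 called 28 members, all higher, a larger share than the 15% of all genes. Of the 89 nuclear members 83 had a log2 fold change above 0, with a median of 0.73 against 0.13 over all genes. By group the median was 0.63 for complex I, 1.34 for its assembly factors, 1.08 for complex II, 0.83 for complex III, 0.83 for complex IV and 0.66 for complex V. The 11 mitochondrial mRNAs had a median of 0.81 and the 7 well counted ones of 0.39, and no mitochondrial member was called.

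Sdhb, the iron-sulphur subunit of succinate dehydrogenase (chr4:140961203-140979193), had 213.6, 135.3 and 250 TMM CPM in the Cck-low sums, here as elsewhere with the deep pool given last. In the 9 sums of the hormone classes it ran from 18.9 to 83.2, so the groups did not overlap. The log2 fold change was 1.98 ± 0.36 (SE; edgeR adjusted p = 0.00291), higher in 3 of 3 pools. Uqcrc1, a core protein of complex III (chr9:108936633-108949623), had 181.3, 307 and 333.6 TMM CPM against 29.4 to 164.2 (log2 fold change 1.78 ± 0.37, edgeR adjusted p = 0.00709). Ndufv1, which carries the NADH site of complex I (chr19:4007384-4012806), had 105.1, 111.8 and 166.9 TMM CPM against 14.7 to 97. Its log2 fold change was 1.57 ± 0.43 with an adjusted p of 0.0383 by edgeR. It was called in 11 of 18 alternative settings, and in 1 of them its log2 fold change was -0.253. Cox5a, a nuclear subunit of complex IV (chr9:57521274-57532426), had 68.1, 87.1 and 135 TMM CPM against 12.6 to 62.2, a log2 fold change of 1.49 ± 0.40 (edgeR adjusted p = 0.0318).

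The 4 complex V genes belong to the catalytic head and the stalk that joins it to the membrane part. Atp5b (chr10:128083273-128090391), the catalytic beta subunit, had 661.6, 906.2 and 1618 TMM CPM in Cck-low cells and 107.1 to 628.1 in the hormone classes. Its log2 fold change was 1.34 ± 0.32 (edgeR adjusted p = 0.0162). Atp5a1 (alpha subunit) had 465.3, 577 and 1178 TMM CPM against 161.8 to 380.1, and Atp5c1 (gamma subunit, chr2:10056016-10080510) 301.3, 297.1 and 408.3 against 63 to 264.5. Their log2 fold changes were 1.39 ± 0.30 and 1.12 ± 0.32, with adjusted p of 0.00879 and 0.0466 by edgeR. Atp5o, part of the stalk (chr16:91925214-91931687), had 67, 106.3 and 209 TMM CPM against 28.3 to 65.3 (log2 fold change 1.33 ± 0.34, edgeR adjusted p = 0.0247). All were higher in 3 of 3 pools, and in each of the 8 genes the deep pool had the highest Cck-low level. Over 18 alternative settings the 8 genes were called in 6 (Atp5c1) to 14 (Sdhb). Atp5o was called in 10 of them, and in 1 its log2 fold change was -0.063. Exons of Atp5a1, Atp5o and Cox5a overlap genes on the other strand, whose reads cannot be told apart here.

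Among the uncalled members mt-Rnr2 came nearest, with 32953, 26358 and 27327 TMM CPM in Cck-low sums against 7005 to 25841 in the hormone classes. Its log2 fold change was 1.21 ± 0.36 (edgeR adjusted p = 0.0548). mt-Cytb had a log2 fold change of 0.97 ± 0.34 and mt-Co1 of 0.88 ± 0.33, with adjusted p of 0.106 and 0.131 by edgeR, while mt-Nd6, annotated on the other strand, had -0.10 ± 0.32. Reads at mt-Nd6 cannot be assigned to a strand here, and its exon overlaps that of mt-Nd5.

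On the scale of all reads the Cck-low class did not stand above the hormone classes in every pool. Its nuclear share was 0.225% and 0.449% in the shallow pools, under Gcg-high and Pzp-positive cells, and 1.9% in the deep pool, above them. The TMM factors that scale the sums were 0.357, 0.595 and 1.62 for Cck-low cells in the same pools, and after this scaling the nuclear members summed to 6796, 8125 and 12406 TMM CPM against 2510 to 5985 in the hormone classes. With the spike-in reads as library size, 0 members and 6.31% of all genes were called, and the median over nuclear members was 0.10 against -0.50 over all genes. In a single sum, fewer cells of a type and less RNA per cell cannot be told apart.

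The make-up of the summed reads differed too. Complex I genes took 25.9%, 24% and 23.4% of the nuclear member reads in Cck-low sums, and from 27.2% to 32.8% in the 12 sums of the other 4 classes, with no overlap. Complex V genes took 37.3%, 36% and 40.1% against 31.8% to 35% in the others, again without overlap. Complex IV did not part the classes, at 15.6% to 19.2% in Cck-low and 13.9% to 21.3% elsewhere.

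The reads of the Cck-low sums came from few cells. A median Cck-low cell had a nuclear share of 0.052%, 0.0547% and 0.714% by pool. The 10 enterocyte-marked cells held 61.7%, 44.8% and 70.9% of the nuclear member reads of the 3 sums, with 9.4%, 9.96% and 43.1% of all reads. Single cells weighed most: 1 enterocyte-marked cell of pool SLX-9703 had a nuclear share of 4.06% and held 68.7% of the nuclear member reads of its sum, and 1 of pool SLX-11179 (3.34%) held 44.4%. In pool SLX-11175, 2 cells with shares of 2.42% and 2.02% held 34.3% and 26.8%. The enterocyte list ran from 1372 to 35186 CPM in the 10 cells, all 10 of its genes had reads in the class, and its summed level was 1207 to 11872 CPM in Cck-low sums against 654 to 3971 CPM in the hormone classes and 2511 to 6985 CPM in other Cck-high cells. In 6 of the 10 cells, at 1372 to 3065 CPM, the list lay under the highest hormone class sum (3971 CPM). In these 6 cells it was still above the Gip-high sums, which had 654 to 1233 CPM. Among the 6 was the cell of pool SLX-11175 with the 2.42% share (1992 CPM). The mark is therefore read as a rule and not as a cell type. Apart from the cells with shares of 4.06%, 3.34%, 2.42% and 2.02%, the enterocyte-marked cells were at 0.0358% to 0.381% with 1295 to 7604 genes. Without the enterocyte-marked cells, a choice made after the data were seen, 0 members were called (3.1% of all genes were), and the median over nuclear members was 0.12 against 0.10 over all genes.

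The leukocyte-marked cells differed between the pools. In the shallow pools their nuclear share ran from 0.0013% to 0.154% over 14 cells, and in pool SLX-9703 it was 0.416%, 1.01% and 1.35% in 3 cells. All 12 leukocyte markers had reads in the Cck-low class, with summed levels of 3890 to 222737 CPM by pool, against 1.24 to 172.9 CPM in the hormone classes. These cells took 78.3%, 53.6% and 51% of the reads of the 3 Cck-low sums. Without them, likewise a choice made after the data were seen, 18 members were called, all higher in Cck-low cells, where 4.9% of all genes were called. The 8 Cck-low cells led by enteroendocrine markers had a median share of 0.41% with a range from 0.0535% to 0.604%. The single cell led by stem and cycling genes had 2.41%, and the highest of the cells that reached 1000 CPM on no list had 1.78%.

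**Figure D5:**
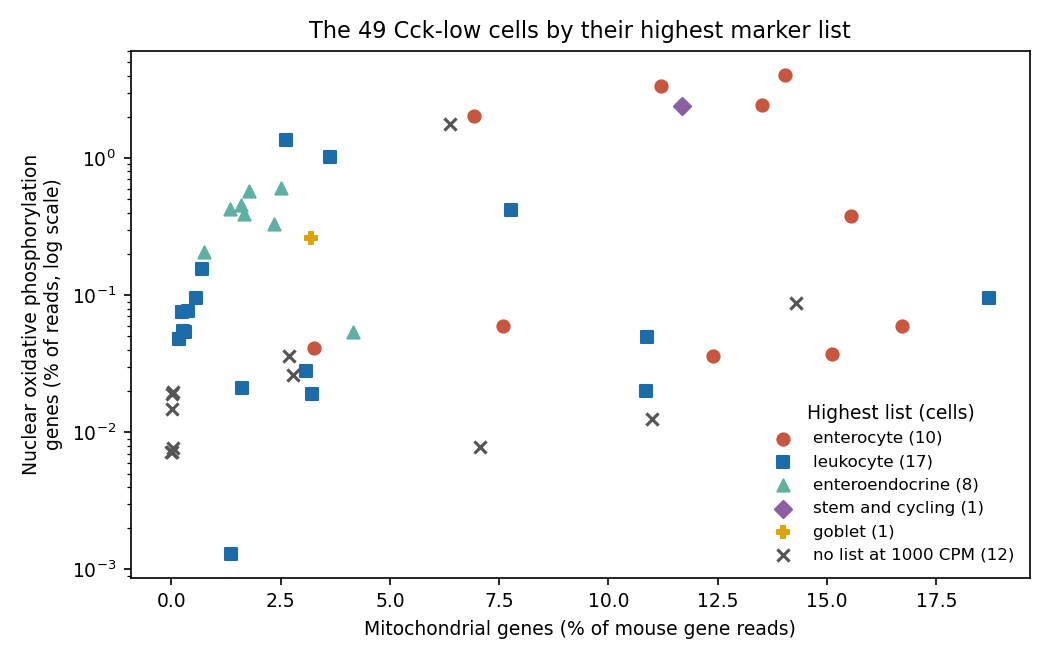
Nuclear share (log axis) against the mitochondrial share of mouse gene reads in each of the 49 Cck-low cells, with the marker list of highest summed CPM as symbol. Nuclear shares from 2.02% to 4.06% are seen in 4 enterocyte-marked cells and in the 1 cell led by stem and cycling genes. The other 6 enterocyte-marked cells lie at 0.381% or less. The highest cell with no list at 1000 CPM lies at 1.78%.

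The mitochondrial limit also bore on the result. The enterocyte-marked cells had 3.26% to 16.7% mitochondrial reads, with a median of 12.9%, and with a limit of 10% in place of 20% for all cells 0 members and 2.86% of all genes were called and the nuclear median fell to 0.22. The count of 8 was 0 without pool SLX-11175, 1 without pool SLX-11179 and 2 without pool SLX-9703, where 2.79%, 5.47% and 2.68% of all genes were called.

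Other genes of mitochondrial metabolism were followed from fixed lists. Of 33 tested assembly factors outside the member list, 3 were higher in Cck-low cells (Tmem70, Foxred1 and Ecsit, of complexes V and I) and none lower. Of 22 genes of the citric acid cycle and pyruvate entry 4 were higher: Cs (citrate synthase, log2 fold change 2.28), Idh3a (2.04), Fh1 (1.68) and Suclg1 (1.13). The 11 tested genes of a list of carriers, channels and other mitochondrial proteins had 2 higher, Chchd10 (1.92), a protein of the intermembrane space, and the phosphate carrier Slc25a3 (1.26), and 1 lower. Slc25a4, an ADP/ATP carrier, was lower in Cck-low cells (log2 fold change -2.47 ± 0.54, edgeR adjusted p = 0.01), with 8.1, 18.5 and 54 TMM CPM against 69.3 to 281.6 in the hormone classes. Of 15 glycolysis genes 1 was called, Ldha (2.30), and of 15 genes of mitochondrial biogenesis none was, with 4 (26.7%) at an unadjusted p under 0.05, where 21.1% of all genes had one. The lists had medians of 0.30, 0.90, 0.49, 0.90 and 1.27 in the order named, against 0.13 over all genes. Over all genes 4.03% were called higher and 6.63% in either direction, and counts as small as those of single lists are not read as results about the lists.

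Between the hormone classes 3 of 96 tested list genes were called, all between Gip-high and Pzp-positive cells, where 1.73% of all genes were called. Of the 4 listed pyruvate dehydrogenase kinases, which inhibit pyruvate entry into the citric acid cycle, Pdk3 and Pdk4 were called in opposite directions. Pdk1 (log2 fold change -4.47, edgeR adjusted p = 0.0626) and Pdk2 (2.23, adjusted p = 0.117) were not called. Pdk3 had 100.2, 119.6 and 138.4 TMM CPM in Pzp-positive sums and 6.3, 0 and 17.8 in Gip-high sums (log2 fold change -3.83 ± 0.73, edgeR adjusted p = 0.0111). Pdk4 had 18.9, 19.9 and 107.3 TMM CPM in Gip-high sums and 0, 0.5 and 0 in Pzp-positive sums (edgeR adjusted p = 0.0203). It passed the filter on low counts only through the Gip-high sums, since the filter needs 3 sums at 6.17 CPM or more and only 1 sum of the other classes reached that, so its call is a description and not support for a difference. Tmem70, an assembly factor of complex V, had 0, 0 and 0.2 TMM CPM in Gip-high sums and 6.1, 32.7 and 21.7 in Pzp-positive sums (edgeR adjusted p = 0.0349). No glycolysis, carrier or biogenesis gene was called between hormone classes.

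The promoters of the nuclear members carried some letters more often than other promoters. RefSeq promoter windows (GRCm38.p6, 250 bases before to 50 after the start) were found for 75 of the 98. The letters CGCATGCG, the core of the palindrome bound by NRF1, were present in 16% of the 75 and in 2.07% of 27025 genes, CCGGAAG, an ETS factor motif also bound by GABPA, in 24% and 9.93%, and AAGATGGCG, a YY1 motif, in 10.7% and 1.64%, on either strand. The first motif reads the same on both strands, and the letters of the 3 motifs were searched one by one. Of the 8 members called in Cck-low cells 7 had a window and 2 of them held such letters, both after the start, where 41.3% of the 75 members and 12.8% of all genes with a window held any of the 3. These are matches of letters and not binding sites. Ndufa11 (chr17:56717612-56717761, plus strand) is shown as a member with the NRF1 letters upstream, as 150 bases that end at the start, and Uqcrc1 (chr9:108936668-108936697) and Sdhb (chr4:140961271-140961300), both on the plus strand, as the 30 bases around their match, with the motif in capitals.
Ndufa11: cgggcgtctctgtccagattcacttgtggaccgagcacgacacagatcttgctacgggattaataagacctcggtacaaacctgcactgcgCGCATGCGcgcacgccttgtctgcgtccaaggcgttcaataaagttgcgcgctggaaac
Uqcrc1: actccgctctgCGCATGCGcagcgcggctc
Sdhb: gagaaaCCGGAAGcggccttccactcgttg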

How the data were processed

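Single cells of 3 pools were sequenced by Smart-seq2, a protocol without strand marks or molecular identifiers. By the submitters' processing notes reads were aligned with GSNAP (2015-09-29) to mm10 and counted with HTSeq (0.5.3p3), and the authors deposited raw read counts per gene and cell, not normalized. Lines that name no gene (77.6% of counts) stayed out, and 4 columns that match no sample were not used. Symbols, exon lengths and transcripts came from GENCODE M21.

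Sums of counts over the cells of a class in a pool (3 cells or more) were compared with edgeR 4.0.16 (R 4.3.3; TMM, filterByExpr, quasi-likelihood test, Benjamini-Hochberg adjustment), with the pool as a block, and DESeq2 1.42.0 as an alternative. Sums of the same pool share its plate and sequencing: their deviations from the class means had correlations of 0.0197 to 0.39 (median 0.104, 30 pairs), and those of different pools -0.212 to 0.0996. Raw counts were summed, so a cell with more reads weighed more in its sum, and no doublet caller was run. Scripts were tested on simulated data.

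The members, lists and tests were chosen with earlier results of these data known. The text names called members, the leading 3 per complex by level per length, the mitochondrial mRNAs and rRNAs and the isoform families, and says where others were chosen by their values.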

Additional observations from a re-analysis of the deposited data

Results flagged for a closer look

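In the Cck-low class of pool SLX-9703, 1 enterocyte-marked cell had a nuclear share of 4.06%, farther from the 5 others than the limit for 6 values allows (gap of 0.683 of the range, limit 0.625). It was the only one among 8 groups of values of 4 to 10 cells that were looked at, and chance marks about 1 group in 20.

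The difference between Cck-low cells and the mean of the 3 hormone classes in the nuclear share of all reads had opposite signs by pool: -0.243 percentage points in pool SLX-11175, -0.0533 in pool SLX-11179 and 1.19 in pool SLX-9703. This difference between pools was not tested. The pools also differed in depth and in their Cck-low cells, of which 10 of 20, 4 of 23 and 3 of 6 were leukocyte-marked in the order of pools given, and by the study's account non-fluorescent control cells were sorted only for the shallow pools.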

How the results depend on the processing

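The count of called members for Cck-low cells against the hormone classes (8) stayed within 1.5 times, at 6 to 12, in 9 of 18 settings and left that range in the other 9. It was 28 by DESeq2 (15% of all genes called), 13 with cells of at least 2500 genes (8.59%) and 18 without leukocyte-marked cells (4.9%), and 0 each with at most 10% mitochondrial reads, with spike-in library sizes and without enterocyte-marked cells. It ranged from 0 to 2 over the fits without 1 pool. In the last of the settings with 0, Atp5o (-0.063) and Ndufv1 (-0.253) turned to a log2 fold change below 0, which the other 6 called genes did not. For Gip-high against Gcg-high cells it was 2 by DESeq2 and 1 with cells thinned to 20000 reads (2.6% of all genes), and for Gip-high against Pzp-positive cells 3 by DESeq2, 1 thinned (5.07%) and 3 with spike-in sizes (2.76%), all lower in Gip-high cells, the 3 comparisons of hormone classes otherwise staying at 0. Among the members followed by name, Ndufv3, Ndufa4 and Cox7a2 were each called against Pzp-positive cells in 2 of 18 settings. Against Gcg-high cells Ndufv3, Ndufa4 and Ndufv2 were each called in 1 of 18. Without the replicate block the Cck-low count was 6 and the others stayed at 0.

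Over reads without mitochondrial and the 11 hormone and marker genes, the mean nuclear share was 1.01% in Gcg-high, 0.578% in Gip-high, 0.952% in Pzp-positive and 0.736% in other Cck-high cells, and the mitochondrial reads came to 5.06%, 4.68%, 5.47% and 5.91% of that sum. The other settings moved no mean share by more than 1 SD over pools. The cause of these shifts was not tested. With cells thinned to 20000 reads, 84 members passed the filter in place of 106 and the Cck-low count was 9.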
